A study of Homo sapiens with 17 samples.

Results

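Heparan sulfate proteoglycans, the sulfatases that edit their chains and a basement membrane protein of the Fraser complex were followed across the libraries of a study of the SOX2 enhancer e1 in squamous cancer cells. Members were the 10 genes SULF1, SULF2, GPC1, GPC3, GPC4, GPC6, SDC1, SDC4, HSPG2 and FREM2, taken by symbol from the 57820 genes listed for each library, and all 10 were found. They were chosen by measured values, because SULF1 was higher on e1 activation and FREM2 and GPC3 were lower on SOX2 knockout. Member values in those comparisons are therefore given as a description, without a p.

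Poly-A RNA was sequenced in 17 libraries, 13 of KYSE140 (derived from an esophageal squamous carcinoma) and 4 of SKMES1 (from a squamous carcinoma of the lung). KYSE140 cells that stably express a dCas9 repressor fusion (CRISPRi) carried guides to e1 (sg-e1#1 and sg-e1#2) or the negative-control guides sg-NC#1 and sg-NC#2, which have no site in the genome. KYSE140 cells with active Cas9 carried 1 of 3 SOX2 guides (sg-SOX2#2, #3 and #4) or a control guide, to AAVS1 or to a site named Chr2.2. Unedited KYSE140 cells were given 0.5 µM ARV-771, a targeted protein degrader, or DMSO, for 6 h, in cultures A and B. SKMES1 cells with a dCas9-VP64 activation system (CRISPRa) carried sg-e1#1 or sg-e1#3, or the negative-control guides sg-NC#1 and sg-NC#2. Each edited library came from an infected and drug-selected population with its own guide, so a replicate is a guide for the CRISPR groups and a culture for the drug groups. The p-values measure only the spread between such libraries.

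Heparan sulfate is a sulfated sugar chain carried on core proteins, and its sulfate pattern sets how growth factors, among them fibroblast growth factors (FGFs), meet their receptors. Glypicans are held to the outer membrane by a lipid anchor, syndecans span the membrane, and perlecan, encoded by HSPG2, lies in the basement membrane. SULF1 and SULF2 are secreted enzymes that remove 6-O sulfates from finished chains. FREM2 forms the Fraser complex with FRAS1 and FREM1, which ties epithelium to the tissue beneath it.

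The total expected count, which is the read count that RSEM estimates per gene, was between 7260730 and 15781463 per library. Levels are given as TPM, a transcript's share of a fixed total per library, which takes gene length into account. SOX2 itself stood at 365 and 379 TPM with CRISPRi control guides against 120 and 128 with e1 guides, at 397 and 428 against 103, 125 and 221 on knockout, at 223 and 236 against 9.80 and 10.5 with ARV-771, and at 1.53 and 1.68 against 224 and 316 on e1 activation. The KYSE140 libraries held the squamous markers fixed for this work (KRT5, KRT6A, KRT14, TP63, DSG3, CDH1 and EPCAM), whose sum was 5750 TPM or more. The SKMES1 libraries went against their squamous label by most of these markers, with a sum of 33.9 to 171 TPM. In the controls KRT5, TP63, KRT6A, DSG3 and CDH1 averaged 0.655, 3.38, 1.72, 0.01 and 3.3 TPM. EPCAM was present in them, at 34.5 and 41.7 TPM. KRT14 was at 0.31 and 118 TPM, far apart between the 2 control guides. The 2 SKMES1 control libraries also stood furthest apart among all replicate pairs, the chi-square of their counts being 26.58 per degree of freedom and that of the other pairs 2.16 to 12.45. Among the knockout libraries sg-SOX2#4, which kept the most SOX2 RNA, stood apart from #2 and #3 (12.43 and 6.35, against 2.77 between those). Without it the fitted log2 fold changes of the members were -3.81 for SULF1, 2.45 for SULF2, -0.23 for GPC1, -3.20 for GPC3, -2.22 for GPC4, 1.42 for SDC1, 2.73 for SDC4, 0.94 for HSPG2 and -4.70 for FREM2, each in the direction of the full fit given further on.

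**Figure D1:**
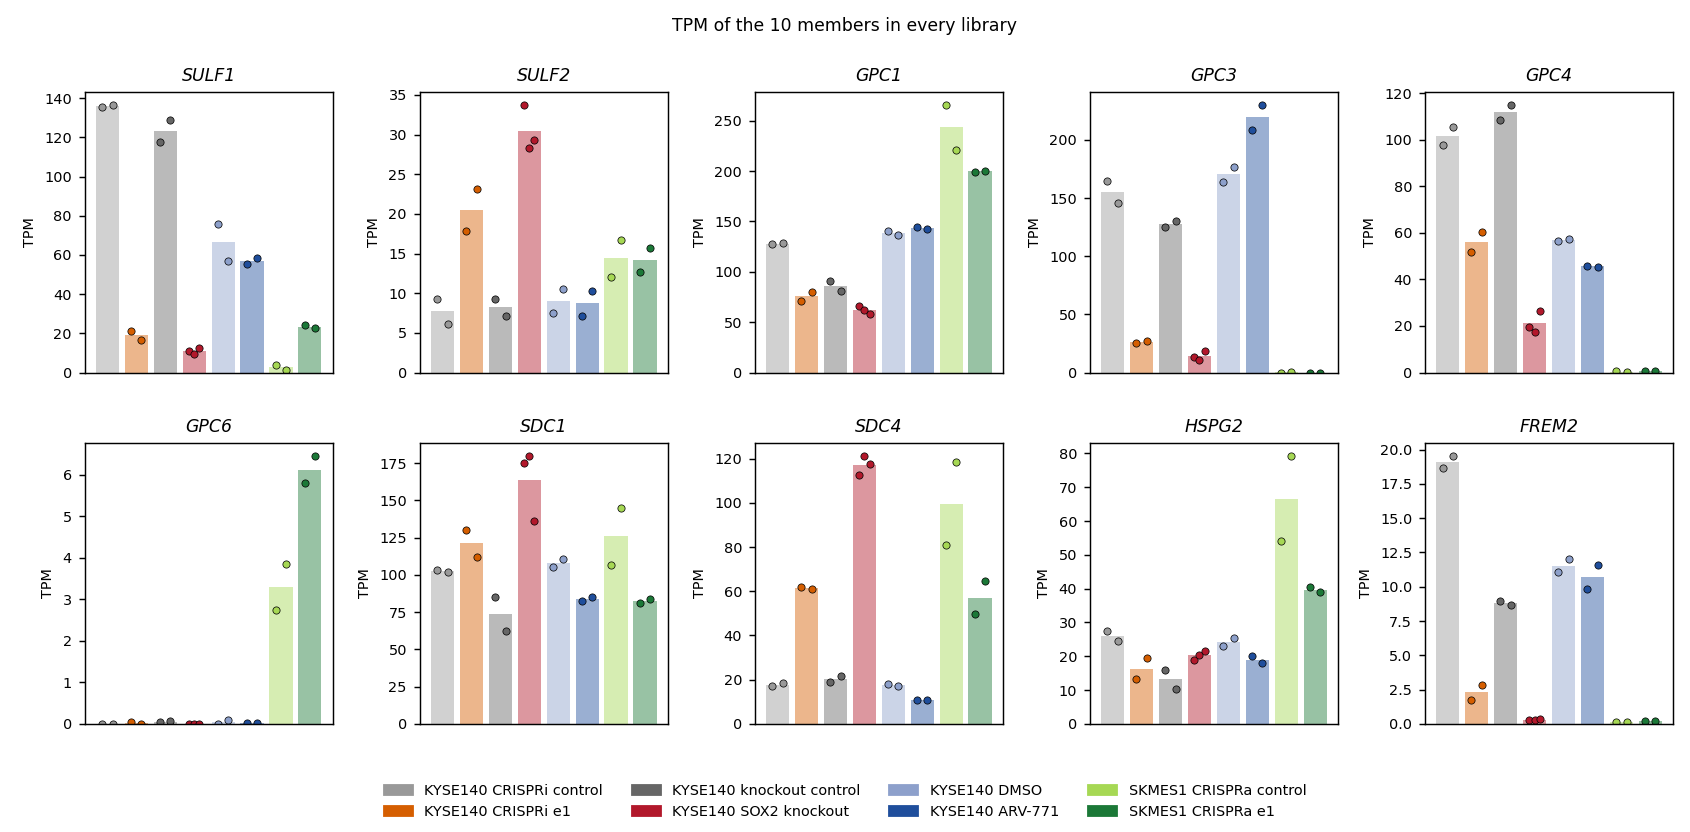
TPM (vertical axis, starting at 0, scaled separately for each gene) of the 10 members by group. Points are libraries and bars are group means; SULF1, GPC3, GPC4 and FREM2 are low and SULF2 and SDC4 high with e1 guides and SOX2 guides, while GPC3 and GPC4 are near 0 and GPC6 is present in SKMES1.

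Repression of e1 changed 8 of the 9 members with enough counts to test. SULF1, GPC1, GPC3, GPC4, HSPG2 and FREM2 fell, and SULF2 and SDC4 rose, by edgeR's quasi-likelihood test at an adjusted p (Benjamini-Hochberg) below 0.05 and a change of more than 1.5-fold (the threshold for a call throughout). Of the 13792 genes tested in this comparison, 9.30% were called risen and 10.7% were called fallen. GPC6 was too low to test, and SDC1 was tested but not called. The direction of each of the 9 tested members was the same under every alternative processing.

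The sulfatases moved in opposite directions. SULF1 was at 135 and 137 TPM with the control guides, compared with 21.4 and 16.5 TPM with the e1 guides. These ranges lie far apart, and the fitted log2 fold change was -3.07 (SE 0.08, edgeR adjusted p = 1.4e-13), an 8.37-fold drop. SULF2 was at 9.26 and 6.18 TPM in control libraries, compared with 17.8 and 23.2 TPM under e1 guides. Both e1 libraries were above both controls, with a log2 fold change of 1.47 (SE 0.12, edgeR adjusted p = 1.1e-07). SULF1 thus made up 93.6% and 95.7% of the summed TPM of the pair in the controls and 54.6% and 41.6% with e1 guides, and the sum itself went from 145 and 143 to 39.2 and 39.7 TPM.

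On SOX2 knockout the same exchange was seen, with larger fitted values. SULF1 stood at 118 and 129 TPM under the AAVS1 and Chr2.2 guides, compared with 10.9, 9.51 and 12.3 TPM under the SOX2 guides (log2 fold change -3.58, SE 0.15). SULF2 was 9.28 and 7.15 TPM in control libraries, compared with 33.7, 28.3 and 29.3 TPM in edited ones (log2 fold change 2.38, SE 0.14). SULF2 was therefore the more abundant sulfatase transcript in all 3 knockout libraries, where SULF1 made up 24.4% to 29.5% of the pair, against 92.7% and 94.7% in the controls. The sizes in both experiments were not tested against each other.

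**Figure D2:**
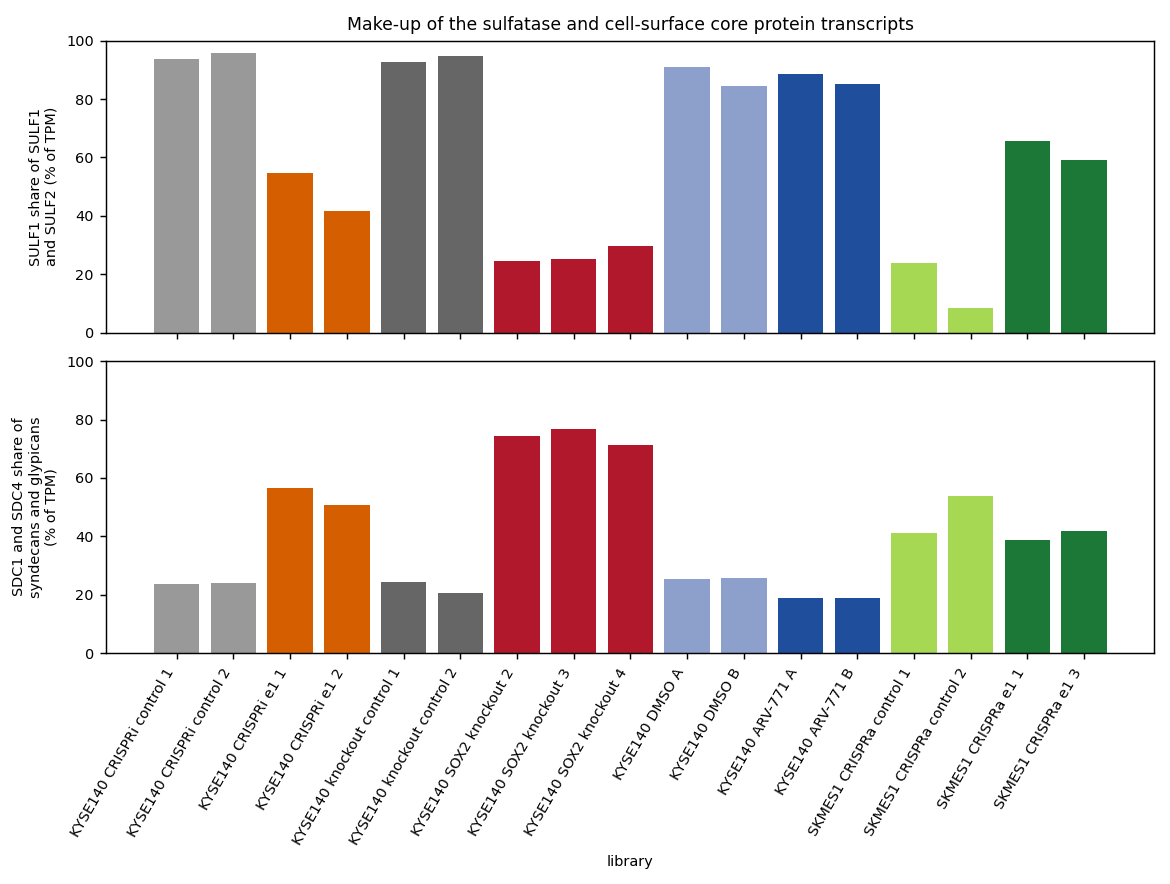
Share, in percent of TPM, of SULF1 in the SULF1 and SULF2 sum (top) and of SDC1 and SDC4 in the sum of both syndecans and GPC1, GPC3, GPC4 and GPC6 (bottom), with 1 bar per library. The SULF1 share goes from over 92% in the CRISPRi and knockout controls to under 55% with e1 or SOX2 guides, and the syndecan share from under 25% to over 50% in the same libraries.

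Among the glypicans, GPC3 was lowered most by e1 repression. This core protein, an oncofetal marker of liver cancer, was the most abundant member with control guides, at 164 and 146 TPM, and dropped to 24.99 and 27.3 TPM with e1 guides. The log2 fold change was -2.55 (SE 0.08, edgeR adjusted p = 7.8e-13). On knockout it measured 125 and 130 TPM in control libraries, compared with 13.1, 10.8 and 18.6 TPM in edited ones (log2 fold change -3.05, SE 0.12). GPC3 lies at chrX:132669773-133121127 on the minus strand (GRCh37), next to GPC4 at chrX:132434131-132549517.

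GPC4, a glypican that binds Wnt and FGF ligands, measured 97.7 and 105 TPM in CRISPRi control libraries, compared with 51.6 and 60.3 TPM under e1 guides (log2 fold change -0.92, SE 0.07, edgeR adjusted p = 6.8e-08). In the knockout it stood at 108 and 115 TPM against 19.8, 17.4 and 26.3 TPM (log2 fold change -2.14, SE 0.09). The level left with SOX2 guides was below that left with e1 guides in every library. GPC1, the glypican most widely made by epithelial tumours, fell from 128 and 128 TPM to 70.7 and 80.4 TPM with e1 guides (log2 fold change -0.76, SE 0.06, edgeR adjusted p = 3.6e-08). Knockout libraries had 66.3, 62.3 and 58.0 TPM of GPC1 against 90.6 and 80.8 TPM, and this log2 fold change of -0.33 was within the 1.5-fold limit. GPC6 had more than 3 counts in 1 of the 13 KYSE140 libraries, with 0.09 TPM at most.

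The syndecans among the members went the other way. SDC2 and SDC3, outside the members, had log2 fold changes of -0.28 and -0.33 on e1 repression and were not called. SDC4, the syndecan of focal adhesions, measured 17 and 18.5 TPM in CRISPRi control libraries, compared with 61.9 and 61.1 TPM under e1 guides. This rise, 1.80 on the log2 scale (SE 0.08, edgeR adjusted p = 9.8e-11), left a gap many times the spread within either group. The knockout libraries held 113, 121 and 118 TPM of SDC4 against 19.1 and 21.8 TPM (log2 fold change 2.70, SE 0.09). SDC1, the main syndecan of stratified epithelium, measured 103 and 102 TPM in CRISPRi control libraries, compared with 131 and 112 TPM under e1 guides. Its log2 fold change of 0.27 (SE 0.06, edgeR adjusted p = 0.00287) was under the fold limit. With SOX2 guides SDC1 stood at 175, 180 and 136 TPM against 85.0 and 62.7 TPM (log2 fold change 1.31, SE 0.13).

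Counted together, the cell-surface cores among the members differed in make-up on e1 repression and knockout, and their sum was lower in both. Cores outside the members, such as SDC2 and SDC3, are not in this sum. The summed TPM of SDC1, SDC4 and the 4 glypicans was 510 and 500 in the CRISPRi controls and 340 and 341 with e1 guides, and the syndecans' part of it was 23.6% and 24.1% against 56.6% and 50.7%. In the knockout experiment the sum was 429 and 410 TPM in the controls and 357 to 391 TPM with SOX2 guides. There the syndecan part was 24.3% and 20.6% against 71.1% to 76.9%. GPC3 was chosen because it was lower on knockout, so nothing is read from the knockout shares.

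FREM2 had the lowest remaining share of its control level among the members in both experiments. It measured 18.7 and 19.5 TPM under CRISPRi control guides, compared with 1.77 and 2.84 TPM under e1 guides (log2 fold change -3.15, SE 0.10, edgeR adjusted p = 7.8e-13). With SOX2 guides it stood at 0.28, 0.29 and 0.34 TPM against 8.96 and 8.67 TPM, a log2 fold change of -4.65 (SE 0.12). HSPG2 did not move alike in both. It fell from 27.4 and 24.4 TPM to 13.2 and 19.5 TPM with e1 guides (log2 fold change -0.73, SE 0.07, edgeR adjusted p = 7.7e-07), while the knockout libraries, at 19.0, 20.4 and 21.6 TPM, were above their controls at 16.0 and 10.5 TPM (log2 fold change 0.91, SE 0.08). The HSPG2 controls of both experiments differed more than 1.5-fold in TPM, its counts were not whole in most libraries because RSEM shared reads with other genes, and the difference between the 2 effects was not tested.

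In the knockout experiment 4 members passed the call threshold as risen and 4 as fallen, of 9 with enough counts. Of all 13978 genes there, 16.3% were called risen and 13.5% were called fallen. This comparison was used to choose members, so nothing is read from these counts. Marker genes shifted in the same libraries. The squamous marker sum was 6310 and 6286 TPM with CRISPRi control guides against 9647 and 9605 TPM with e1 guides, and 7234 and 7243 TPM against 22778 to 26518 TPM on knockout. KRT14, a keratin of basal cells, averaged 84.5 TPM against 1033 TPM with e1 guides, while TP63, the squamous lineage factor, averaged 155 TPM against 96.3 TPM there and 174 TPM against 66.5 TPM on knockout. EPCAM was also lower, with means of 233 against 126 TPM with e1 guides and 228 against 117 TPM on knockout. KRT5, KRT6A and DSG3 were higher on average in both. CDH1 averaged 91.6 against 93.4 TPM with e1 guides and 120 against 183 TPM on knockout. The sum of 6 mesenchymal markers (VIM, ZEB1, CDH2, FN1, COL1A1 and PDGFRB) was 219 and 207 TPM with CRISPRi control guides against 1236 and 1167 TPM with e1 guides, and 325 and 364 TPM against 1213 to 1339 TPM on knockout. VIM carried this difference, with means of 118 and 1119 TPM in the CRISPRi experiment and 252 and 1196 TPM in the knockout. CDH2, the cadherin of mesenchymal cells, went the other way, from a mean of 80.1 to 43.5 TPM with e1 guides and from 79.3 to 18.3 TPM on knockout. PDGFRB and ZEB1 stayed at or below 0.18 TPM with e1 guides and their controls. Of the endothelial and blood markers measured, CDH5, PTPRC and CD3E were at or near 0 with e1 guides and CD68, a lysosomal protein of macrophages and other cells, stood at 25.1 TPM on average against 0.96 TPM. The part of these shifts in the member values was not tested. In bulk RNA a change in the share of cells of one type and a change in RNA per cell cannot be told apart.

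**Figure D3:**
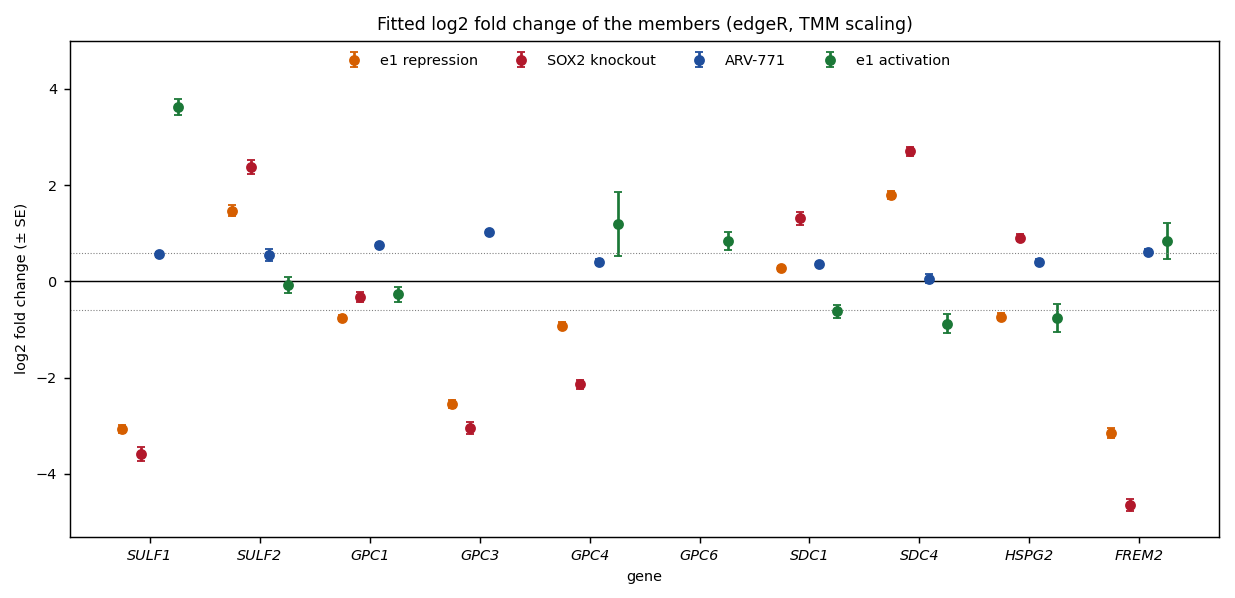
Fitted log2 fold change of each member (vertical axis, points, with bars of ± 1 SE) in 4 comparisons, with dotted lines at 1.5-fold in either direction. For SULF1, GPC3 and FREM2 the e1 repression and SOX2 knockout points lie at -2.55 or below and the ARV-771 points between 0.56 and 1.02; a missing point was not tested.

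Promoter sequence is shown for FREM2 and GPC4, which were lower, and SDC4, which was higher, on e1 repression and knockout. The 250 bases before each annotated gene start were read from GRCh37, with capitals marking a GC box (GGGCGG or its reverse complement CCGCCC) or a CCAAT box (CCAAT or its reverse complement ATTGG). FREM2 is on the plus strand at chr13:39260964-39261213, GPC4 on the minus strand at chrX:132549518-132549767 and SDC4 on the minus strand at chr20:43977065-43977314. None of the bases is in an annotated exon.
FREM2: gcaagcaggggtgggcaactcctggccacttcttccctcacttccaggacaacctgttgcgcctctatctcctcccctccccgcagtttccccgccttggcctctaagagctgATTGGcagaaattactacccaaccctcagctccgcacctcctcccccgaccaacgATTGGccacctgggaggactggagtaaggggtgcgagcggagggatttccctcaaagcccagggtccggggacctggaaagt
GPC4: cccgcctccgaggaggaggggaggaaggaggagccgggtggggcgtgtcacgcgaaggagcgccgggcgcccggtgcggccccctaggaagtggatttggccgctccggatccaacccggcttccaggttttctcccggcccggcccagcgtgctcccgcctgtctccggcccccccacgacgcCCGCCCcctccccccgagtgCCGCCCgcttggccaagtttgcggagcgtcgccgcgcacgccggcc
SDC4: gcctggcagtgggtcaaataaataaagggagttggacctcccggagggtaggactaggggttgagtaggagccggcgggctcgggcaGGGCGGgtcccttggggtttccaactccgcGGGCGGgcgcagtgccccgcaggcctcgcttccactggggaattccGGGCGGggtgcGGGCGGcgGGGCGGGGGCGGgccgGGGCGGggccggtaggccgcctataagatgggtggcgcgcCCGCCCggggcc
The FREM2 window held 2 CCAAT boxes and no GC box, the GPC4 window 2 GC boxes and no CCAAT box, and the SDC4 window 8 GC boxes, a pair of which abut, and no CCAAT box. Over all 35116 RefSeq promoters (GRCh38.p14) cut to the same 250 bases, 42.6% held a GC box and 32.0% a CCAAT box on either strand. The core letters of SOX sites (ATTGT or ACAAT, in 24.6% of promoters) and of AP-1 sites (TGANTCA, in 6.6%) were in none of the 3 windows, which says only that these letters are not there.

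Genes around the members gave a mixed picture on e1 repression. Of 62 genes in 7 lists, which hold the enzymes that make, modify and degrade heparan sulfate, other cores, growth factors and receptors that bind it, 5 partners of the Fraser complex and 10 other basement membrane glycoproteins, 46 could be tested. Of these 8 rose and 9 fell, beside 9.30% risen and 10.7% fallen over all genes, and their median log2 fold change was -0.24 against -0.00 for all genes tested. In the chain polymerases and their partners, 2 of 9 tested genes rose and none fell, where those shares would give about 1 of each. EXT1, a subunit of the polymerase that extends the chain, had a log2 fold change of 0.78 (SE 0.08, edgeR adjusted p = 5.9e-07), and EXTL3, which starts it, 0.76 (SE 0.08, edgeR adjusted p = 7.2e-07). Among 8 tested sulfotransferases and other modifying enzymes, 1 rose (HS3ST1, log2 fold change 0.81) and 1 fell (NDST2, -0.62). On knockout, as a description, the log2 fold changes of these genes were 0.81 for EXT1, -0.29 for EXTL3, 0.33 for HS3ST1 and 0.28 for NDST2.

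Growth factors and receptors that use heparan sulfate were the list with most calls on e1 repression, 5 risen and 4 fallen of 11. Over all genes tested, 9.30% were called risen and 10.7% fallen. HBEGF, an EGF receptor ligand with a heparin-binding tail, measured 2.55 and 3.02 TPM in control libraries, compared with 15.4 and 18.6 TPM under e1 guides (log2 fold change 2.78, SE 0.17, edgeR adjusted p = 2.6e-09). FGF1, a ligand for all FGF receptors, had 1 and 2 counts in the controls and 40 in each e1 library (edgeR adjusted p = 5.1e-06). FGFR2, the FGF receptor typical of epithelium, fell from 155 and 161 TPM to between 25.9 and 29.9 TPM (log2 fold change -2.49, SE 0.07, edgeR adjusted p = 2.9e-13), and FGFR1 fell by 1.49 on the log2 scale (SE 0.10, edgeR adjusted p = 7.9e-09). Their levels on knockout are given as a description. HBEGF stood at 30.1 ± 2.29 TPM (SD, n = 3) against 2.99 ± 0.926 TPM (SD, n = 2). FGFR2 was at 21.9 ± 4.38 TPM (SD, n = 3) against 82.3 ± 9.93 TPM (SD, n = 2). The knockout log2 fold changes of FGF1 and FGFR1 were 5.03 and -0.68. Not all genes of this list moved alike in both experiments. FGF2 had a log2 fold change of 0.67 with e1 guides and -1.11 on knockout, and FGFR3 -1.05 and -0.07.

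FRAS1, which joins FREM2 in the Fraser complex, fell from between 14.2 and 17.3 TPM to between 4.43 and 5.22 TPM with e1 guides (log2 fold change -1.83, SE 0.10, edgeR adjusted p = 4.3e-10). FREM1 was called fallen too, from 11 counts in each control to 0 and 1. Of the 4 partners tested, 2 fell and none rose, where 10.7% of all genes tested were called fallen and 9.30% risen. COL18A1, a collagen of the basement membrane that carries heparan sulfate, was at 41.5 and 41.6 TPM against 17.5 and 18.2 TPM (log2 fold change -1.23, SE 0.07, edgeR adjusted p = 5.7e-10) and was the only one of 6 tested cores outside the members to be called. Of 7 tested laminins, nidogens and related glycoproteins, LAMA5 fell (-0.67, SE 0.06, edgeR adjusted p = 2.8e-07) and the others were not called. In the knockout the means were 2.83 TPM of FRAS1 against 12.8 TPM, and 9.74 TPM of COL18A1 against 35.1 TPM. LAMA5 had a log2 fold change of -0.03 there.

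SOX2 RNA was lower with ARV-771 than with e1 guides or SOX2 guides, and SULF1, GPC3 and FREM2 were not lowered like it after 6 h. The SOX2 guides target the coding region, so the RNA left there does not measure how much SOX2 protein was lost. Protein is not in these data, and the perturbations are not ranked by loss of SOX2. GPC3 was at 164 and 177 TPM in DMSO and at 209 and 230 TPM with the drug. SULF1 was at 75.8 and 57.1 TPM in DMSO and at 55.5 and 58.6 TPM with the drug, and FREM2 at 11.1 and 12.0 TPM against 9.81 and 11.6 TPM. The groups overlap for SULF1 and FREM2, while both GPC3 libraries with the drug were above both with DMSO.

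Under TMM scaling 3 members, GPC1, GPC3 and FREM2, were called risen and 0 fallen, of 9 tested by edgeR, where 21.2% of 13500 genes were called risen and 31.7% were called fallen. Without adjustment 10330 of these genes had a p under 0.05. The fitted log2 fold change was 1.02 for GPC3 (SE 0.05, edgeR adjusted p = 2.4e-15), 0.75 for GPC1 (SE 0.05, edgeR adjusted p = 3.9e-13), 0.61 for FREM2 (SE 0.06, edgeR adjusted p = 6.1e-09) and 0.56 for SULF1 (SE 0.05, edgeR adjusted p = 8.6e-10, under the fold limit). FREM2 fell under the fold limit without DMSO culture A (0.56) or ARV-771 culture B (0.52), and SULF1 passed it without DMSO culture A (0.59), as did SULF2, at 0.55 in the full fit, without DMSO culture B (0.64) or ARV-771 culture A (0.71). The direction of these values depends on the scaling. The median of all genes moved by -0.04 with TMM, by -0.50 with library totals and by -1.12 with the mitochondrial genes as the reference, whose share of counts was 4.67% and 5.28% in DMSO and 7.74% and 7.52% with the drug. GPC3, the member raised most under TMM, had a log2 fold change of -0.06 with the mitochondrial reference.

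A scaling factor moves all genes of a library alike, so a value less the median of all genes is all but fixed by construction for the TMM, RLE, library total and mitochondrial scalings, and only the 2 fits on TPM could move it. With that median taken off, GPC3 was 0.96 to 1.06 above that median on the log2 scale, GPC1 0.65 to 0.79, SULF2 0.55 to 0.64, FREM2 0.50 to 0.66 and SULF1 0.40 to 0.61. GPC4, HSPG2 and SDC1 were 0.24 to 0.46 above it, and SDC4 lay between -0.05 and 0.10, on both sides of it. In TPM, SDC4 was at 18.1 and 16.99 in DMSO, compared with 10.6 and 10.97 with the drug, without overlap.

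**Figure D4:**
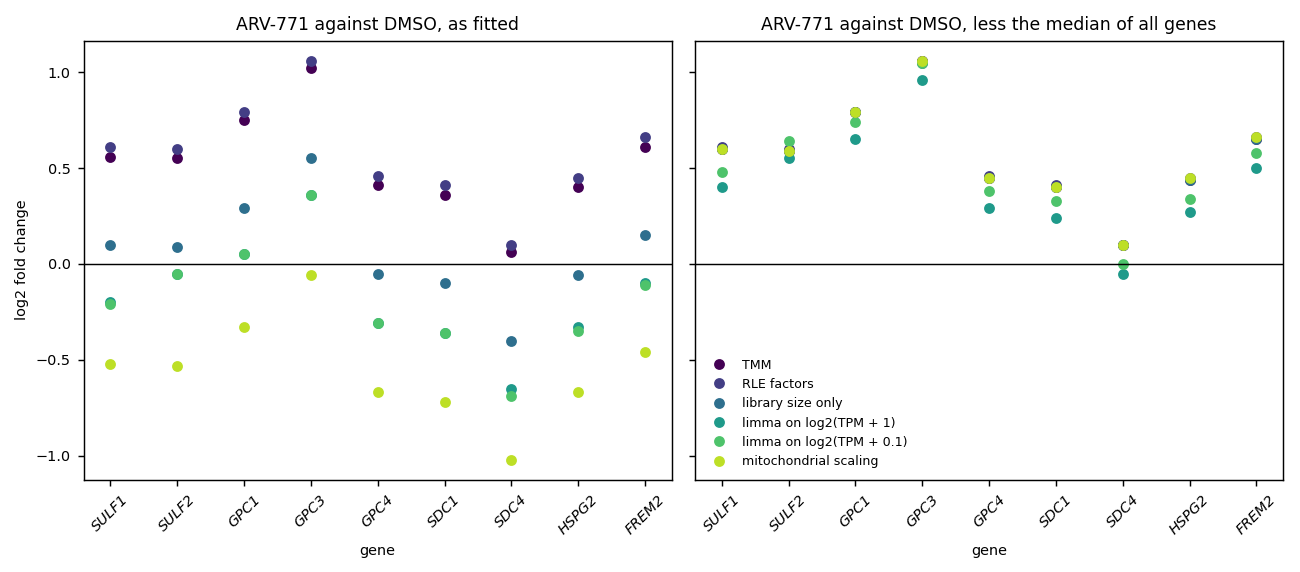
Log2 fold change of 9 members with ARV-771 against DMSO under 6 scalings (colours), as fitted (left) and less the median of all genes (right). The fitted values spread from 1.06 to -1.02 with the scaling, and the values less the median, nearly equal by construction for 4 of the scalings, are above 0 for 8 of 9 members and on both sides of 0 for SDC4.

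Whether e1 repression and ARV-771 had unequal effects was tested over the 8 libraries of the 4 groups. It was called for 8 of 9 members by edgeR, 2 upward and 6 downward, where 32.2% of 14270 genes were called upward and 23.6% were called downward. SULF1, GPC3 and FREM2 differed most, by -3.61 (SE 0.10, edgeR adjusted p = 4.2e-16), -3.55 (SE 0.09, edgeR adjusted p = 2.0e-16) and -3.75 (SE 0.13, edgeR adjusted p = 1.2e-14) on the log2 scale. SDC1 differed by -0.08 (SE 0.08, edgeR adjusted p = 0.39). The drug acted for 6 h and the guides from infection through at least 2 days of drug selection, so agent and time cannot be told apart. Among the pathway lists, HS modification had the lowest median log2 fold change with the drug, -1.02, against -0.04 for all genes. Of its 8 tested enzymes, 5 were called fallen and 1 risen under TMM. Over all genes 31.7% were called fallen and 21.2% risen, a split that depends on the scaling.

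Activation of e1 in SKMES1, where SOX2 is nearly silent, was among the comparisons used to choose members. SULF1 measured 3.79 and 1.53 TPM under control guides, compared with 24.1 and 22.8 TPM under e1 guides (54 and 51 counts against 519 and 934). The fitted log2 fold change was 3.62 (SE 0.17), with 3.81 and 3.45 when sg-NC#1 or sg-NC#2 was left out, and SULF1 was the 1 member past the call threshold, with 0.168% of 14859 genes called risen and 0.0202% called fallen. It passed that threshold in 9 of 12 alternatives. The exceptions were limma on TPM, with log2 values of 2.81 and 3.22 at the larger and smaller pseudocount, and the fit without sg-e1#3, with 3.60, in which 1 gene in all was called. Of the other members, SDC1 and SDC4 passed it in 5 of the alternatives each, GPC6 and HSPG2 in 3 each and the rest in 0. SULF1 was chosen on this comparison, so nothing is read from its calls here. Its share of the sulfatase pair went from 23.9% and 8.36% to 65.6% and 59.1%, with SULF2 at 12.0 and 16.8 TPM against 12.7 and 15.7 TPM.

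GPC3, GPC4 and FREM2, which were lower with SOX2 guides in KYSE140, stayed near 0 in SKMES1. GPC3 had 1 count in all 4 SKMES1 libraries together. GPC4 measured 0.68 and 0.14 TPM in control libraries, compared with 0.65 and 0.47 TPM under e1 guides, which overlap. FREM2 was at 0.15 and 0.12 TPM against 0.24 and 0.24 TPM, from 14 to 37 counts a library, with a log2 fold change of 0.84 (SE 0.37). SDC4 stood at 81.1 and 118 TPM against 49.5 and 64.7 TPM (log2 fold change -0.88, SE 0.20), and GPC6 at 2.75 and 3.84 TPM against 5.80 and 6.45 TPM (log2 fold change 0.84, SE 0.19). GPC1, also lower with SOX2 guides in KYSE140, was the most abundant member in SKMES1, at 266 and 221 TPM in control libraries, compared with 199 and 200 TPM under e1 guides, SDC1 at 107 and 145 against 81.3 and 83.6 TPM, and HSPG2 at 54.0 and 79.2 against 40.4 and 39.0 TPM. Leaving out sg-NC#1 or sg-NC#2, the library pair that stood furthest apart, gave log2 fold changes of -1.13 and -0.57 for SDC4, -1.14 and -0.24 for HSPG2, 0.64 and 1.09 for GPC6 and 1.03 and 0.66 for FREM2. No pathway gene of 50 tested was called by edgeR's quasi-likelihood test, whose total over all genes was 28, with 2109 genes at an unadjusted p under 0.05. With edgeR's exact test 3 of them were called and with DESeq2 2.

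Among the members, GPC3 had the largest fitted difference between the lines, and GPC6, with a lower bound only, was not ranked. With control guides, 5 members were higher and 4 lower in SKMES1 than in KYSE140, of 10 tested by edgeR, where 30.4% of 15100 genes were called higher and 25.2% were called lower. GPC3 had 5315 counts over the KYSE140 CRISPRi controls and 1 over the SKMES1 controls, a ratio of 5457 after scaling for depth (exact 95% interval 979 to 215598, counting error only). GPC6 was at least 104-fold higher in SKMES1, from 320 counts over its control libraries against 0, taking 3 counts as the floor over the group. The log2 difference for GPC4 was -8.83 (SE 0.30, edgeR adjusted p = 1.9e-05), with 10 and 3 counts in the SKMES1 controls, so that without sg-NC#1 it rests on 3 counts. FREM2 differed by -7.32 (SE 0.14, edgeR adjusted p = 1.0e-05). SULF1, among the 4 lower members, differed by -6.38 (SE 0.14). It is given without a p, since these SKMES1 controls were also used to choose it. SDC4 was higher in SKMES1 by 2.48 (SE 0.20, edgeR adjusted p = 2.0e-04), HSPG2 by 1.24 (SE 0.28, edgeR adjusted p = 0.00987), SULF2 by 1.12 (SE 0.18, edgeR adjusted p = 0.00266) and GPC1 by 0.73 (SE 0.15, edgeR adjusted p = 0.00608). GPC1 was not called without either KYSE140 control library (0.73 and 0.70) or without sg-NC#1 of SKMES1 (0.52). HSPG2 was not called without either KYSE140 control library (1.26 and 1.20), and its difference was 0.73 without sg-NC#2 of SKMES1. SDC1 was not called (0.17, edgeR adjusted p = 0.306). Line and CRISPR system cannot be told apart in this comparison.

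Core proteins and basement membrane genes outside the members also separated the lines. SDC2, the syndecan of mesenchymal cells, was at 82.3 and 99.7 TPM in the SKMES1 controls and at 1.42 and 1.60 TPM in the KYSE140 CRISPRi controls (log2 difference 5.70, SE 0.26, edgeR adjusted p = 4.2e-05). Of 10 tested laminins, nidogens and related glycoproteins, 8 were higher in SKMES1 and 0 lower, where 30.4% of 15100 genes were called higher and 25.2% lower. NID2, a nidogen that links laminin to collagen, had 0 counts in every KYSE140 group and between 562 and 914 counts in the SKMES1 controls. The mesenchymal marker sum was 1805 and 2413 TPM in these SKMES1 libraries.

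GPC3 and GPC4 are neighbours on the X chromosome, and HS6ST2, which adds the 6-O sulfates that SULF1 and SULF2 remove, lies next to them at chrX:131760043-132095423 (GRCh37, minus strand). HS6ST2 was between 8.18 and 22.0 TPM in KYSE140 and at most 0.12 TPM in SKMES1. Between HS6ST2 and GPC3, the protein-coding genes other than GPC4 were USP26 and TFDP3, at 0.11 TPM or less in every library of either line. On the far sides of this stretch, MBNL3 was at 1.77 to 8.31 TPM in KYSE140 and 2.71 to 6.91 TPM in SKMES1, and PHF6 at 9.82 to 30.3 TPM and 29.2 to 31.7 TPM. The 3 heparan sulfate genes of this stretch were thus near 0 in SKMES1, and the nearest expressed genes on both sides were not. HS6ST2 was lower on SOX2 knockout (9.07 ± 0.781 TPM, SD, n = 3, against 17.8 ± 0.424 TPM, SD, n = 2), and stood at 21.5 ± 0.757 TPM with e1 guides against 20.2 ± 0.537 TPM in their controls (SD, n = 2 each). This stretch was looked at after the values of GPC3 and GPC4 were seen.

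**Figure D5:**
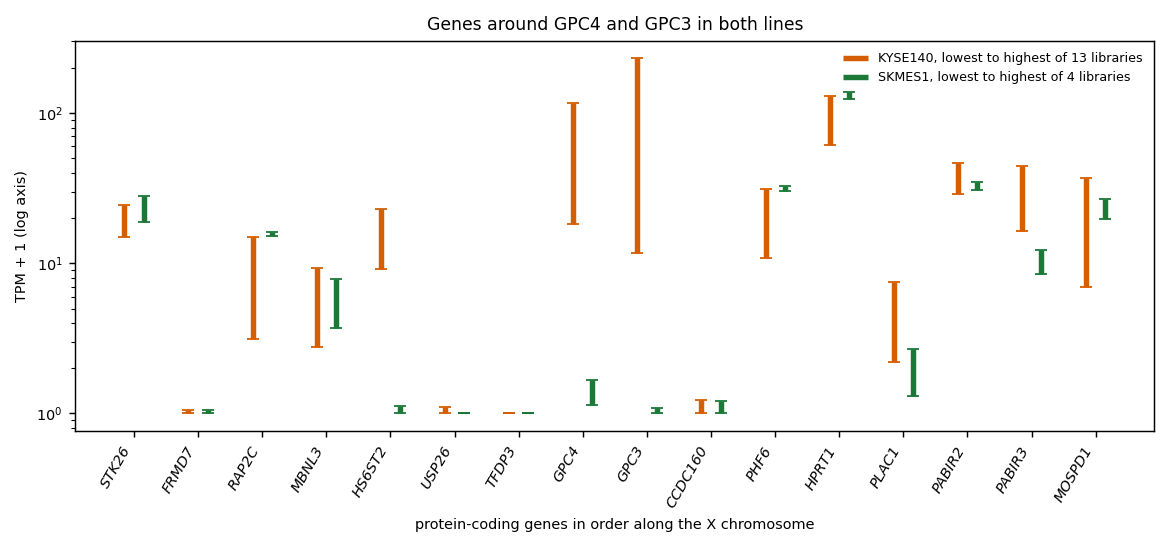
Lowest to highest TPM + 1 (vertical log axis) of the protein-coding genes from 1000000 bases before HS6ST2 to 1000000 bases after GPC3, in order along the X chromosome, in the 13 KYSE140 (orange) and 4 SKMES1 (green) libraries. HS6ST2, GPC4 and GPC3 are expressed in KYSE140 and near 0 in SKMES1, while PHF6 and HPRT1 are expressed in both.

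Over all groups, mean SULF1 ran in the order KYSE140 CRISPRi control, knockout control, DMSO, ARV-771, SKMES1 e1, KYSE140 CRISPRi e1, SOX2 knockout and SKMES1 control, and only DMSO and ARV-771 overlapped among neighbours. The KYSE140 controls were not alike. Across the 6 control libraries of the 3 experiments SULF1 ranged from 57.1 to 137 TPM, GPC4 from 56.3 to 115 TPM and FREM2 from 8.67 to 19.5 TPM, each more than 2-fold, and SDC4 only from 16.99 to 21.8 TPM. GPC4 in DMSO, at 56.3 and 57.2 TPM, lay within the range of the libraries with e1 guides. Each comparison was therefore made against the controls of its own experiment.

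The genes most alike in pattern were named by the Pearson correlation of log2(TPM + 1), given as a description since the libraries of one experiment share their controls and perturbation. Over the 13 KYSE140 libraries FREM2 was most like GALNT12 (r = 0.991), CENPP, PHGDH, ATP6V0E2 and EEF1A2, and GPC3 most like TSPAN6 (r = 0.992), NELL2, DCXR, AKR1C3 and PCCB, among 11702 genes. Over all 17 libraries SULF1 was most like SOX2-OT, the transcript that overlaps SOX2 (r = 0.959), then SNTB1, TMEM221, ALPL and PIPOX, among 12459 genes. SOX2 itself was far down these orders, with an r of 0.62 (rank 1169) for SULF1, 0.059 for FREM2 and -0.102 for GPC3. These values include the ARV-771 libraries, with SOX2 at 9.80 and 10.5 TPM after 6 h. They rest on SOX2 RNA only, and its protein level is not in these data. With a pseudocount of 0.1, FREM2 kept 2 of its 5 genes and GPC3 and SULF1 all 5. Among the members, FREM2 and GPC3 had an r of 0.959 with each other and of -0.950 and -0.989 with SDC4.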

How the data were processed

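Members and gene lists were chosen with earlier results of these data known. The authors made directional poly-A libraries, aligned reads to hg19 (Bowtie2) and estimated counts of GENCODE genes (RSEM), with versions not given in the sources used here. The deposited expected count is not normalized between libraries. The deposited TPM was scaled by the authors' RSEM run within each library with its own effective lengths, so TPM and count ratios can differ. The deposited FPKM was not used. Between 7.41% and 10.02% of genes per library had counts that were not whole, which marks shared reads.

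Groups came from the labels. Expected counts were rounded and tested with edgeR 4.0.16 in R 4.3.3 (glmQLFit, TMM, filterByExpr with a minimum count of 10 and total of 15, only the groups compared, no covariates). A call needed an adjusted p below 0.05 and more than 1.5-fold change. Alternatives were edgeR's exact test, DESeq2 1.42.0, limma 3.58.1 on log2(TPM + 1) and log2(TPM + 0.1), RLE factors, library totals, mitochondrial scaling, no low-count filter, all 17 libraries in one fit, all 6 KYSE140 controls, a replicate block and each library left out. Of 200 genes changed 3-fold in simulated counts, the main test recovered 196 for e1 repression, 156 for e1 activation and 170 for the cell line. False calls were 13, 15 and 29, in that order. A gene with 3 counts had 0.19 to 0.413 CPM, depending on depth. Named pathway genes were, per list and comparison, the up to 2 risen and 2 fallen with the largest fold among those whose TPM did not overlap. Intervals cover counting error only. Positions are GENCODE v44 on GRCh37.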

Additional observations from a re-analysis of the deposited data

Results flagged for a closer look

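For 8 members the effect of e1 repression differed from that of ARV-771 in KYSE140 by the interaction contrast of edgeR. In that contrast 55.8% of all 14270 genes tested were called, and agent and time cannot be told apart. The difference of log2 fold changes was -3.61 for SULF1, 0.93 for SULF2, -1.50 for GPC1, -3.55 for GPC3, -1.31 for GPC4, 1.76 for SDC4, -1.12 for HSPG2 and -3.75 for FREM2, with edgeR adjusted p between 2.0e-16 and 2.1e-04. The median of all genes in this contrast was 0.11 with TMM and 0.52 with library totals. Each group had 2 or 3 libraries, too few for the test of a single outlying value used for groups of 4 to 10.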

How the results depend on the processing

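For e1 repression 7 to 8 members were called under every alternative (HSPG2 was not called with limma on TPM, -0.66 and -0.69), and in the cell line comparison 7 to 9. With ARV-771 the count of members called was 5 with DESeq2, 5 with RLE factors, 5 with all 17 libraries in one fit, 0 with library totals and 1 with limma at either pseudocount, which was SDC4, as fallen. The values that turned negative with ARV-771 were, with limma at a pseudocount of 1 and of 0.1 TPM, -0.20 and -0.21 for SULF1, -0.05 and -0.05 for SULF2, -0.31 and -0.31 for GPC4, -0.36 and -0.36 for SDC1, -0.65 and -0.69 for SDC4, -0.33 and -0.35 for HSPG2 and -0.10 and -0.11 for FREM2. With library totals they were -0.05 for GPC4, -0.10 for SDC1, -0.40 for SDC4 and -0.06 for HSPG2. With mitochondrial scaling they were -0.52 for SULF1, -0.53 for SULF2, -0.33 for GPC1, -0.06 for GPC3, -0.67 for GPC4, -0.72 for SDC1, -1.02 for SDC4, -0.67 for HSPG2 and -0.46 for FREM2. These turns follow the shift of the median of all genes that each scaling carries. The share of calls that were risen was 40% with TMM, 5.9% with library totals, 0.823% with mitochondrial scaling and 1.89% and 1.73% with limma, and on SOX2 knockout it was 54.7%, 36.2% with library totals and 38.9% and 39.1% with limma. In the difference between e1 repression and ARV-771 the share was 57.7% with TMM, 78% with library totals and 89.7% and 89.6% with limma. There SDC1 turned to 0.32 with library totals and to 0.59 and 0.60 with limma, and ranged from -0.25 to 0.00 with single libraries left out. For the cell line, SDC1 ranged from -0.00 to 0.35 with single libraries left out.

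On e1 activation the count of genes called, 28 in the main test, was 523 with edgeR's exact test, 400 with DESeq2, 1116 without the low-count filter, 784 with all 17 libraries in one fit, and 9 and 8 with limma at the larger and smaller pseudocount, and with single libraries left out it ran from 1 (without sg-e1#3) to 764 (without sg-NC#1). The pathway genes called there were 3 with the exact test, 2 with DESeq2, 1 with library totals, 9 without the filter and 7 with all libraries in one fit, and 0 to 7 with single libraries left out. The cause was not tested. A lone library left in a group was assumed to vary like the other group. The exact test was not run for the difference between e1 repression and ARV-771. Same-numbered libraries did not deviate together, with correlations of 0.02 for e1 repression, -0.03 for ARV-771 and 0.03 for the cell line. In the cell line comparison they carry the same named control guide. Whether drug cultures of the same letter were set up together cannot be told from these values. With a replicate block, 2807 genes were called on e1 repression, 7090 with ARV-771 and 8230 between lines, with 8, 3 and 9 members. GPC6 in KYSE140 and GPC3 in SKMES1 were limited by depth.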
